A study of Mus musculus with 6 samples.

Results

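The genes described here are 40 interferon-stimulated genes, taken by name from a deposited table of 35148 genes measured in mouse paraventricular hypothalamus (PVH), a small nucleus of neurosecretory neurons that takes part in feeding, stress and water balance. All 40 were in the table and all passed the filter on low counts, so none is left out below. The mice carried loxP-flanked alleles of Ruvbl2 (Ruvbl2fl/fl), which encodes an ATPase of chromatin-remodelling and chaperone complexes, and every animal group had received a virus in the PVH. The sample titles give 8w, taken here as 8 weeks after the virus, although the titles do not say so. In 3 libraries, labelled AAV2-Cre-GFP, the adeno-associated virus of serotype 2 carried Cre recombinase with GFP, and in the 3 libraries labelled AAV2-GFP it carried GFP alone. No group without virus is among the samples, so both groups share the injection and the viral GFP. The labels give neither the promoter that drives Cre, nor the age or sex of the mice, nor whether a library is 1 animal or a pool, and p-values therefore measure the spread between these libraries, which may be technical. The series description names the role of RUVBL2 in synaptic plasticity as the question behind the comparison.

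Interferons are cytokines that cells release when they detect viral or misplaced nucleic acid. Type I interferon binds the IFNAR receptor and activates the kinases JAK1 and TYK2, and a transcription factor complex that holds STAT2 and IRF9 then assembles on a short promoter element, the interferon-stimulated response element (ISRE), to switch on a set of antiviral genes. In brain, microglia, astrocytes, endothelium and neurons can all respond, and in bulk tissue fewer cells of a type and less RNA per cell cannot be told apart.

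Ruvbl2, the targeted gene, does not check the labels. It stood at 9.53, 9.10 and 9.51 FPKM (fragments per kilobase of transcript, scaled to the library) in the libraries labelled AAV2-Cre-GFP and at 9.90, 7.36 and 8.72 FPKM in those labelled AAV2-GFP (edgeR adjusted p = 0.773), a count over the whole gene that does not separate deleted from retained exons. The libraries are therefore called Cre-labelled and GFP-labelled below. Total counts ran from 41890769 to 54702785 per library. A ribosomal RNA model, CT010467, had 17600, 13500 and 7300 CPM (counts scaled to a common library total) in Cre-labelled libraries 1 to 3, against 2220, 2200 and 2070 CPM in GFP-labelled libraries 1 to 3. Transcripts of other organs stood out in 3 libraries. For 6 kidney genes the sum was 437 CPM in Cre-labelled library 2 and 475 CPM in Cre-labelled library 3, with the remaining libraries at 13.6 to 39.9 CPM. The sum over 6 testis genes reached 354 CPM for GFP-labelled library 1, with a maximum of 1.5 CPM in any other library, and that over 5 skeletal muscle genes reached 160 CPM for Cre-labelled library 3, with a maximum of 12.8 CPM in any other. The median log2 difference of the 40 genes is given below also without these 3 libraries. The PVH markers Sim1, Otp, Oxt, Avp, Crh and Trh were detected in all 6 libraries. Their sum spanned 222 to 521 CPM across the Cre-labelled libraries and 286 to 730 CPM across the GFP-labelled ones. None of the 6 had a higher fitted level in the Cre-labelled libraries. At an unadjusted edgeR p under 0.05, 3 of the 6 were lower there, as were 9.11% of all genes tested.

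Most interferon-stimulated genes lay higher in the Cre-labelled libraries, by modest amounts. The log2 difference, Cre-labelled minus GFP-labelled, was above 0 for 34 of 40 genes (85.0%), against 49.0% of all 20865 genes tested, and its median was 0.47, against -0.006 over all genes tested. With edgeR's quasi-likelihood test none of the 40 reached an adjusted p under 0.05, where 0% of all genes passed as higher and 0.00959% as lower. At an unadjusted edgeR p under 0.05 there were 13 higher members (32.5%), where 8.11% of all genes tested were higher, and 1 lower member, Ifit2, where 9.11% of all genes were lower. For 18 members (45.0%) the lowest Cre-labelled library exceeded the highest GFP-labelled one in normalised CPM, the scale on which overlap is judged throughout, and this held for 11.1% of all genes tested. Ifit2 alone was separate in the other direction, as were 11.7% of all genes tested. In FPKM 3 more members, Ifih1, Dtx3l and Parp14, were separate. DESeq2, run on the same counts, called 6 members higher (Ifit3, Bst2, Isg15, Irf7, Irf9 and Ifi27) and none lower at an adjusted p of 0.05, where it called 3.12% of the genes to which it gave an adjusted p higher and 4.91% lower. It gave 6 members with few counts, Zbp1, Oas1a, Oas3, Oasl1, Mx1 and Ifi44, no adjusted p.

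Single libraries moved the DESeq2 count, in runs chosen after seeing the data. It was 3 without Cre-labelled library 2, without Cre-labelled library 3 or without GFP-labelled library 1, where 1.58%, 1.31% and 2.4% of all genes were called higher, and 9 without GFP-labelled library 2, where 1.61% were. Ifit3 was called in each of these fits. With Cre-labelled library 1 alone against GFP-labelled libraries 2 and 3, which leaves out the libraries with transcripts of other organs, the median log2 difference of the 40 genes was 0.18. Over all genes tested in that fit the median was -0.001. That fit assumes that the lone Cre-labelled library varies as the GFP-labelled ones do, so only its medians are given in this section.

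**Figure D1:**
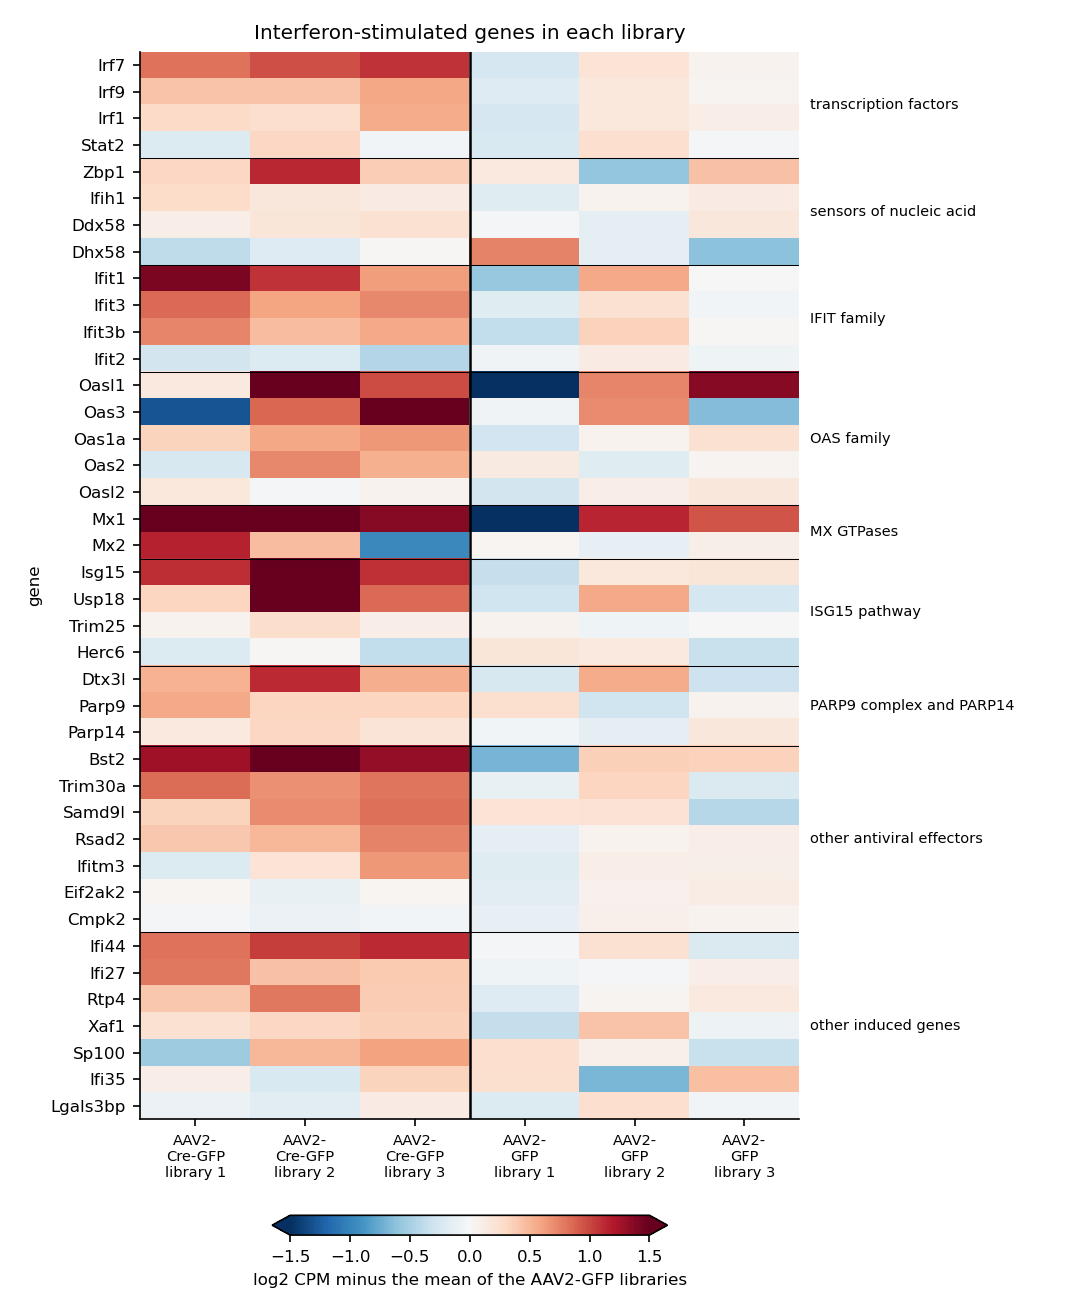
Each row is a gene, grouped by role, and each column a library, with the Cre-labelled libraries left of the line; colour gives log2 CPM minus the mean of the GFP-labelled libraries, and colours at the ends of the scale include values beyond 1.5. Irf7, Isg15, Bst2, Ifit3 and Trim30a are red in all 3 Cre-labelled libraries, whereas Stat2, Eif2ak2, Cmpk2 and Lgals3bp are pale throughout.

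**Figure D2:**
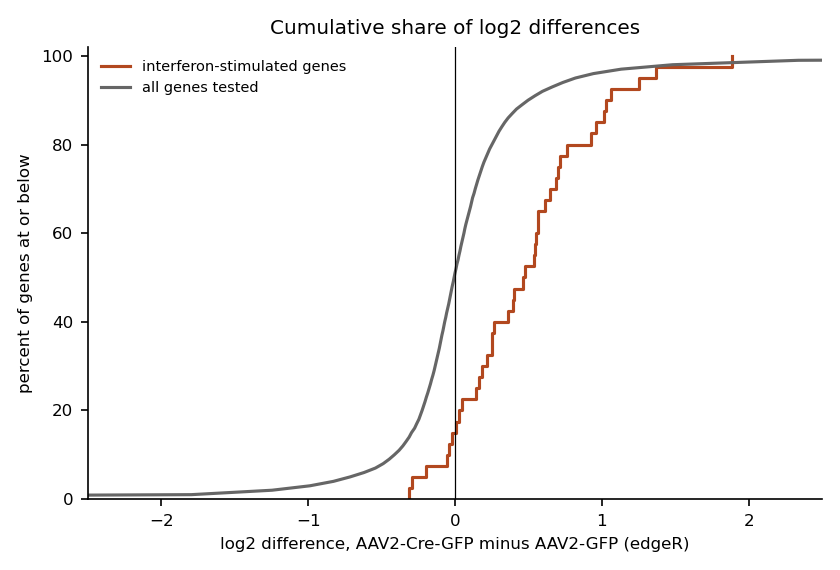
The horizontal axis is the log2 difference, Cre-labelled minus GFP-labelled, and the vertical axis the percent of genes at or below it, for the 40 interferon-stimulated genes and all 20865 genes tested. The interferon-stimulated curve lies to the right, with medians of 0.47 and -0.006.

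Among the transcription factors of the response, Irf1, Irf7 and Irf9 lay higher in every Cre-labelled library while the Stat2 groups overlapped. Irf7, the factor that amplifies type I interferon production, stood at 0.895, 0.973 and 1.07 FPKM in the Cre-labelled libraries, against 0.405, 0.561 and 0.496 FPKM in the GFP-labelled ones, a 1.95-fold difference (log2 0.96 ± 0.23 SE; edgeR adjusted p = 0.113, DESeq2 adjusted p = 0.0202). Irf9, the DNA-binding subunit of the ISRE complex, stood at 3.44, 3.32 and 3.76 FPKM in the Cre-labelled libraries, against 2.14, 2.73 and 2.5 FPKM in the GFP-labelled ones, a 1.39-fold difference (edgeR adjusted p = 0.121, DESeq2 adjusted p = 0.0191). Neither pair of ranges overlapped. Stat2, the partner of IRF9 in that complex, stood at 4, 5.56 and 4.40 FPKM in the Cre-labelled libraries and at 3.78, 5.29 and 4.32 FPKM in the GFP-labelled ones, with a 95% interval of the log2 difference of -0.35 to 0.40. Within both groups Stat2 was highest in library 2, and the spread inside each group was larger than the difference between them. Irf1, a factor that interferon gamma induces strongly, averaged 2.35 ± 0.280 FPKM in the Cre-labelled and 1.78 ± 0.261 FPKM in the GFP-labelled libraries (SD, n = 3 each; edgeR adjusted p = 0.315). Whether strand was used in counting is not stated; the antisense model Gm17334 covers 3145 bases of Irf1, and Rnf31 shares 123 bases with Irf9 on the same strand, so reads there could belong to either gene.

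Promoter sequences, from RefSeq windows of GRCm38.p6 that run from 250 bases before to 50 bases after each start, were matched for 30 of the 40 genes by symbol. The ISRE was searched as GAAANNGAAA on both strands, with overlapping matches counted. It was present in 14 of the 30 genes (46.7%), against 3.99% of all 27025 genes with a window. The longer form GAAANNGAAACT was present in 8 of the 30 (26.7%), against 0.303% of all genes. The members were listed as interferon-stimulated genes, so these shares describe the list and not the libraries. The gamma-activated site, an element of genes induced by interferon gamma, searched as TTCNNNGAA, which reads the same on both strands, was present in 7 of the 30 (23.3%), against 9.55% of all genes. Of the 11 matched genes with a higher value at an unadjusted edgeR p under 0.05, 7 held the ISRE, and of the other 19 matched genes 7 did. The median log2 difference was 0.565 among genes with the ISRE letters and 0.26 among those without, both as descriptions of these libraries. For the gamma-activated site the counts were 1 of the 11 and 6 of the 19, with medians of 0.255 with it and 0.564 without. Ifit3 and Ifit3b, near-copies described below, are both counted among the higher genes with the ISRE.

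The stretches below show the ISRE letters in capitals, in either orientation, for 6 members with a higher value at an unadjusted edgeR p under 0.05, and are given to show how closely the elements of these genes resemble each other. All are 70 bases of GRCm38.p6, written 5′ to 3′ on the strand of the gene. In order they are minus-strand chr4:156200837-156200906, minus-strand chr8:71537543-71537612, plus-strand chr19:34640775-34640844, plus-strand chr19:34583363-34583432, plus-strand chr19:34607759-34607828 and minus-strand chr12:26456513-26456582.
Isg15: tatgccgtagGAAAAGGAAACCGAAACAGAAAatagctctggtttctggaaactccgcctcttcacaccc
Bst2: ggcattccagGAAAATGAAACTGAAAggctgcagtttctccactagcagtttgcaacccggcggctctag
Ifit1: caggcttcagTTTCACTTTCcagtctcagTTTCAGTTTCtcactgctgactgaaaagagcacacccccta
Ifit3: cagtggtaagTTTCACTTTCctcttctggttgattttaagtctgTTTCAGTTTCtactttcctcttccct
Ifit3b: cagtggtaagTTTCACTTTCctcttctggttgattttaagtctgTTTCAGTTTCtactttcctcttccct
Rsad2: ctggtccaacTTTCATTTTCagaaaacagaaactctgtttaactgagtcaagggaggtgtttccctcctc
In Isg15 and Bst2 the matches run into each other as a single block, in Ifit1, Ifit3 and Ifit3b there is a pair of separate matches, and Rsad2 has a single one. The stretches of Ifit3 and Ifit3b are identical. Neither RefSeq window of Ifit2 held the ISRE letters, which says only that these letters are not in those windows.

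The IFIT family, cytosolic proteins that bind foreign RNA and block its translation, split within a single gene cluster. On chromosome 19 of GRCm38 the 4 members lie on the plus strand in the order Ifit2 (34550694 to 34576419), Ifit3 (34583531 to 34588731), Ifit3b (34607970 to 34613401) and Ifit1 (34640871 to 34650009). Ifit3, a cofactor of IFIT1 as known from human cells, stood at 11.7, 9.47 and 10.5 FPKM in the Cre-labelled libraries, against 5.48, 7.30 and 6 FPKM in the GFP-labelled ones, a 1.64-fold difference (log2 0.715 ± 0.13 SE; edgeR adjusted p = 0.0793, DESeq2 adjusted p = 0.000473). It had the smallest p of the 40 genes in both tools. Ifit1, which recognises RNA whose cap lacks a methyl group, stood at 1.79, 1.37 and 1.01 FPKM in the Cre-labelled libraries, against 0.419, 0.949 and 0.634 FPKM in the GFP-labelled ones, a 2.02-fold difference with groups that nearly touch (edgeR adjusted p = 0.208). Ifit3b stood at 7.90, 6.37 and 6.91 FPKM in the Cre-labelled libraries, against 3.52, 5.82 and 4.60 FPKM in the GFP-labelled ones (edgeR adjusted p = 0.192). Ifit2, the neighbour at the other end of the cluster, lay lower, with 3.59, 3.68 and 3.15 FPKM in the Cre-labelled libraries, against 4.06, 4.56 and 3.97 FPKM in the GFP-labelled ones, a log2 difference of -0.31 ± 0.11 (SE; edgeR adjusted p = 0.207). All 3 Cre-labelled values of Ifit2 lay below all GFP-labelled values.

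Ifit3 and Ifit3b are near-copies, and of the 31-base words of Ifit3 transcripts 61.8% also occur in Ifit3b. Reads can therefore be split between the models, but their summed counts do not depend on the split. Together they had 41.9, 34.1 and 37.4 CPM in the Cre-labelled libraries, against 19.3, 28.0 and 22.7 CPM in the GFP-labelled ones, again without overlap. Ifit2 shared no 31-base word with any other gene, and no other gene model overlapped any of the 4 IFIT genes.

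**Figure D3:**
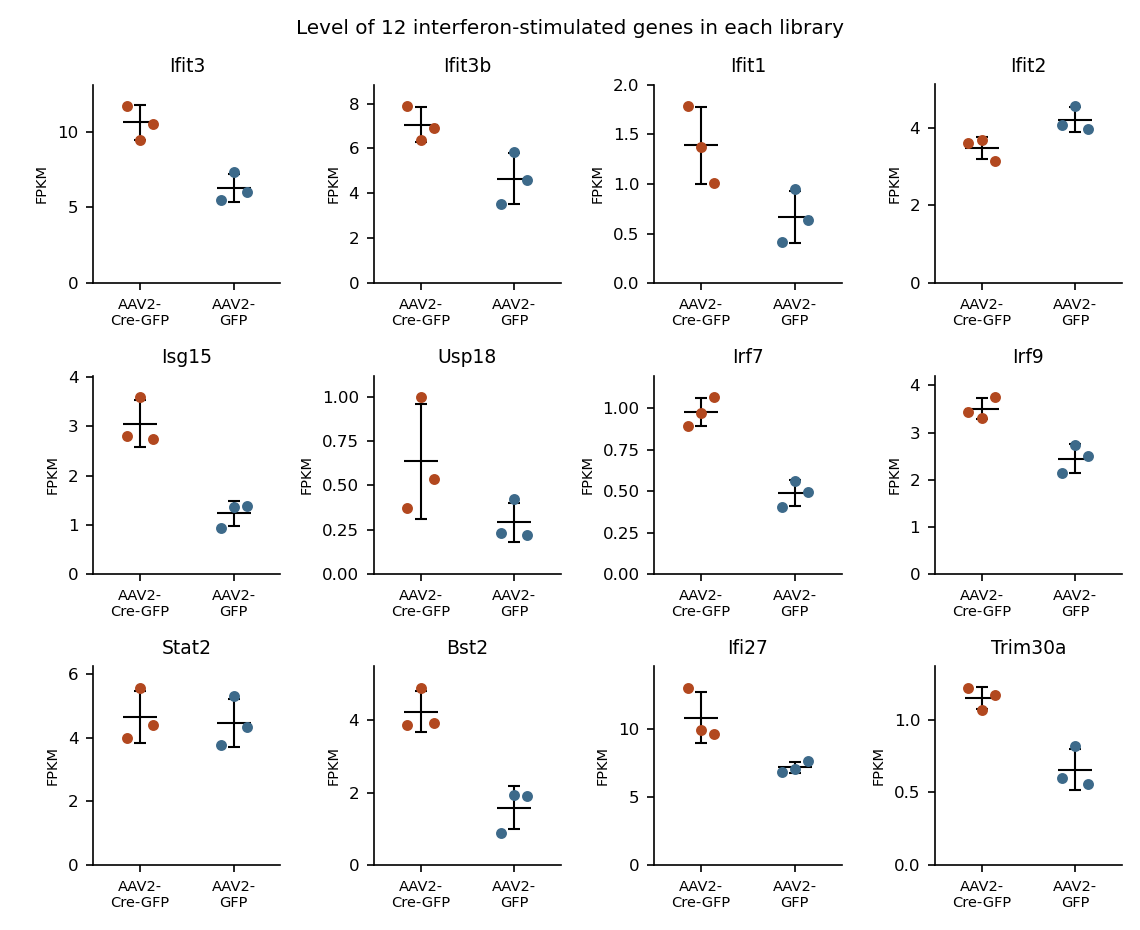
FPKM of 12 genes in each library, with the Cre-labelled libraries on the left and the GFP-labelled ones on the right of every panel; bars give the mean and SD (n = 3 each). The groups are separate for Ifit3, Ifit3b, Isg15, Irf7, Irf9, Bst2, Ifi27 and Trim30a, and narrowly for Ifit1. They overlap for Stat2 and Usp18, and run the other way for Ifit2.

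In the ISG15 pathway, in which a ubiquitin-like protein is attached to other proteins, the modifier had the clearest difference, and the ligases differed by little. Isg15, the modifier, stood at 2.81, 3.60 and 2.74 FPKM in the Cre-labelled libraries, against 0.939, 1.37 and 1.39 FPKM in the GFP-labelled ones, a 2.39-fold difference (log2 1.26 ± 0.29 SE; edgeR adjusted p = 0.111, DESeq2 adjusted p = 0.0298). Usp18, the protease that removes ISG15 and also dampens signalling at IFNAR, stood at 0.370, 1.00 and 0.538 FPKM in the Cre-labelled libraries, against 0.232, 0.421 and 0.221 FPKM in the GFP-labelled ones (2.09-fold; edgeR adjusted p = 0.284). The Isg15 groups were separate by a wide gap, whereas the Usp18 groups overlapped, and the Usp18 log2 difference was 0.59 without Cre-labelled library 2. Herc6, the main ISG15 ligase of the mouse, averaged 0.726 ± 0.0909 FPKM in the Cre-labelled and 0.811 ± 0.159 FPKM in the GFP-labelled libraries, and Trim25, a ligase that acts on RIG-I, averaged 2.30 ± 0.152 and 2.02 ± 0.0742 FPKM in the Cre-labelled and GFP-labelled libraries (SD, n = 3 each; edgeR adjusted p = 0.646 and 0.544). The Herc6 groups overlapped, and those of Trim25 were separate by a narrow gap. Long stretches of Herc6 and Usp18 are overlapped by other gene models, Gm45193 on the same strand and Gm44148 on the opposite one.

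The OAS and MX families were at low levels, and none of their 7 members had an unadjusted edgeR p under 0.05 although all 7 log2 differences were above 0. OAS enzymes make short oligoadenylates that activate RNase L. Oas1a stood at 0.286, 0.342 and 0.359 FPKM in the Cre-labelled libraries, against 0.175, 0.229 and 0.252 FPKM in the GFP-labelled ones (edgeR adjusted p = 0.52). Its groups did not overlap, but from 17 to 44 counts per library, and 68.7% of its 31-base words also occur in Oas1g. Oas1a and Oas1g together had 0.859, 1.11 and 1.15 CPM in the Cre-labelled libraries, against 0.389, 0.976 and 0.749 CPM in the GFP-labelled ones, and these ranges overlapped. Mx1, a dynamin-like GTPase that can block influenza virus in mice, stood at 0.194, 0.271 and 0.0963 FPKM in the Cre-labelled libraries (37, 56 and 24 counts), against 0, 0.0757 and 0.0679 FPKM in the GFP-labelled ones (0, 15 and 15 counts). The groups were separate, but the 95% interval of the log2 difference ran from -0.33 to 4.11 (edgeR adjusted p = 0.364), and the difference was 1.31 without GFP-labelled library 1, the library without a count. Mx2, its cytoplasmic relative, had 122, 78 and 34 counts in the Cre-labelled libraries, on both sides of the 47 to 64 counts in the GFP-labelled ones. Oas2, Oas3, Oasl1 and Oasl2 overlapped between groups, with edgeR adjusted p between 0.607 and 0.91.

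Sensors of nucleic acid differed little. Ddx58, which encodes RIG-I, the sensor of viral RNA ends, stood at 1.06, 1.09 and 1.15 FPKM in the Cre-labelled libraries, against 0.947, 0.858 and 1.07 FPKM in the GFP-labelled ones, a log2 difference of 0.16 ± 0.15 (SE; edgeR adjusted p = 0.62). Ifih1, which encodes MDA5, the sensor of long double-stranded RNA, averaged 0.693 ± 0.0499 FPKM in the Cre-labelled and 0.593 ± 0.0609 FPKM in the GFP-labelled libraries (SD, n = 3 each). Dhx58, which encodes LGP2, a helper of MDA5, averaged 0.385 ± 0.0521 FPKM in the Cre-labelled and 0.466 ± 0.233 FPKM in the GFP-labelled libraries, and the high value was in GFP-labelled library 1 alone, at 0.727 FPKM. Without that library its log2 difference was 0.18. The antisense model Dhx58os overlaps Dhx58 by 2637 bases. Zbp1, a sensor of Z-form nucleic acid that can start necroptosis, had 17, 33 and 23 counts in the Cre-labelled libraries and 15, 8 and 21 counts in the GFP-labelled ones. All 4 sensors overlapped between groups in CPM, as did most genes tested, of which 11.1% were separate as higher and 11.7% as lower.

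Parp9, a member of the ADP-ribosyltransferase family, and Dtx3l, its ubiquitin ligase partner, lie head to head and overlap by 682 bases on opposite strands. Parp9 averaged 1.14 ± 0.134 FPKM in the Cre-labelled and 0.842 ± 0.153 FPKM in the GFP-labelled libraries, and Dtx3l averaged 0.743 ± 0.173 and 0.446 ± 0.164 FPKM in the Cre-labelled and GFP-labelled libraries (SD, n = 3 each; edgeR adjusted p = 0.367 and 0.30). Parp14, a larger relative nearby, had a log2 difference of 0.21 ± 0.17 (SE). Of these 3 genes Parp9 alone had groups without overlap in CPM, and in FPKM all 3 did.

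Of the other antiviral effectors, Bst2, Trim30a, Samd9l and Rsad2 lay higher in every Cre-labelled library, while Eif2ak2 and Cmpk2 had log2 differences of -0.023 and -0.053. Bst2 encodes tetherin, which holds budding virus at the cell surface. It stood at 3.87, 4.89 and 3.93 FPKM in the Cre-labelled libraries, against 0.897, 1.94 and 1.91 FPKM in the GFP-labelled ones, a 2.58-fold difference (log2 1.37 ± 0.33 SE; edgeR adjusted p = 0.118, DESeq2 adjusted p = 0.00719). Its lowest Cre-labelled value was above its highest GFP-labelled value by more than the whole GFP-labelled range. Trim30a, an inhibitor of Toll-like receptor signalling in mice, stood at 1.22, 1.07 and 1.17 FPKM in the Cre-labelled libraries, against 0.596, 0.820 and 0.556 FPKM in the GFP-labelled ones (1.70-fold; edgeR adjusted p = 0.147). Samd9l, a restriction factor of poxviruses, stood at 1.22, 1.52 and 1.68 FPKM in the Cre-labelled libraries, against 1.06, 1.08 and 0.681 FPKM in the GFP-labelled ones (edgeR adjusted p = 0.231). Rsad2, which encodes viperin, a radical enzyme that makes a chain-terminating nucleotide, stood at 0.5, 0.516 and 0.624 FPKM in the Cre-labelled libraries, against 0.321, 0.369 and 0.381 FPKM in the GFP-labelled ones (1.48-fold; edgeR adjusted p = 0.28). These 3 were separate between groups as well.

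Cmpk2, the nucleotide kinase encoded beside Rsad2, did not follow it. It averaged 5.33 ± 0.228 FPKM in the Cre-labelled and 5.39 ± 0.397 FPKM in the GFP-labelled libraries (SD, n = 3 each), with a 95% interval of the log2 difference of -0.25 to 0.14. Eif2ak2, which encodes the kinase PKR that stops translation when it meets double-stranded RNA, averaged 1.85 ± 0.127 and 1.83 ± 0.184 FPKM in the Cre-labelled and GFP-labelled libraries (SD, n = 3 each), and the sign of its difference changed with the scaling. Ifitm3, which blocks viral entry in endosomes, averaged 9.87 ± 2.84 FPKM in the Cre-labelled and 8.08 ± 0.845 FPKM in the GFP-labelled libraries (SD, n = 3 each; edgeR adjusted p = 0.625), with its high value in Cre-labelled library 3, at 12.9 FPKM. At least 20% of the 31-base words of Ifitm3, as of Ifit3, Ifit3b and Oas1a, occur in other genes.

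Of the remaining induced genes, Ifi27 and Ifi44 lay higher in every Cre-labelled library. Ifi27, a small membrane protein, stood at 13, 9.87 and 9.62 FPKM in the Cre-labelled libraries, against 6.85, 7.02 and 7.61 FPKM in the GFP-labelled ones, a 1.47-fold difference (edgeR adjusted p = 0.123, DESeq2 adjusted p = 0.0163). Ifi44 stood at 0.167, 0.193 and 0.206 FPKM in the Cre-labelled libraries, against 0.0887, 0.104 and 0.0751 FPKM in the GFP-labelled ones, a 2.04-fold difference (edgeR adjusted p = 0.176). Both were separate between groups, Ifi27 with the highest mean FPKM of the 40 genes in the Cre-labelled libraries and Ifi44 with one of the lowest. Rtp4, a chaperone of opioid receptors, was also separate, at 1.47 ± 0.232 FPKM in the Cre-labelled and 0.982 ± 0.123 FPKM in the GFP-labelled libraries (SD, n = 3 each; edgeR adjusted p = 0.294), although the model Gm45338 overlaps it on the same strand. Xaf1, Sp100, Ifi35 and Lgals3bp overlapped between groups, with log2 differences between -0.044 and 0.27. Lgals3bp, a secreted glycoprotein, was among the most abundant of the 40 and averaged 10.1 FPKM in both groups (SD 1.07 in the Cre-labelled and 1.66 in the GFP-labelled libraries, n = 3 each).

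**Figure D4:**
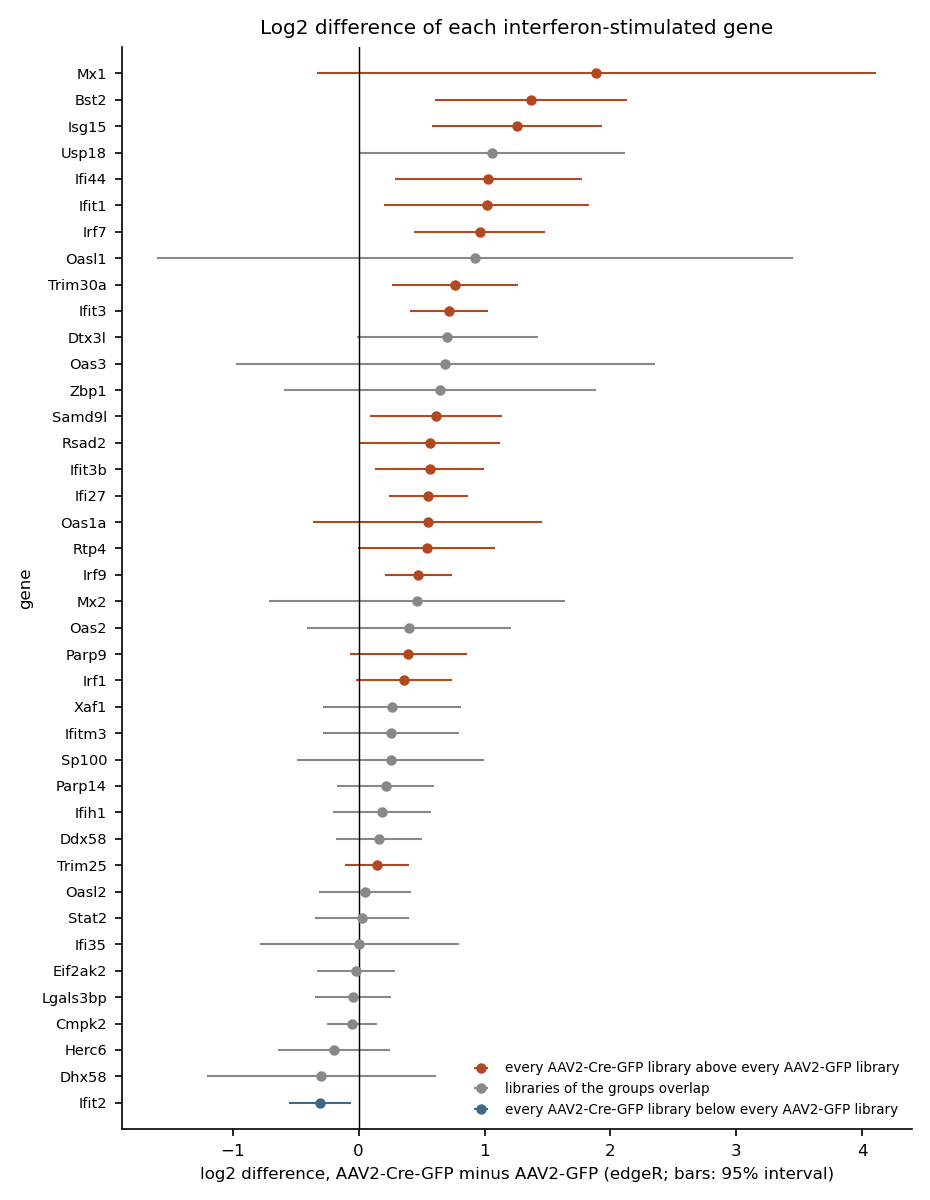
Log2 difference, Cre-labelled minus GFP-labelled, of each of the 40 genes with its 95% interval from edgeR (horizontal axis), ordered by size; colour marks whether the libraries of the groups overlap. The 18 genes with all Cre-labelled libraries higher reach from Trim25 at 0.14 to Mx1 at 1.89, and the interval is widest for Oasl1, Mx1 and Oas3, which have few counts.

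Of 40 other genes of the pathway, 39 were tested, with a median log2 difference of 0.12 that differed widely between lists. None passed in edgeR after adjustment. Before adjustment 6 were higher at a p under 0.05 (15.4%; 8.11% of all genes tested) and 1, Adar, was lower (9.11% of all genes tested). Ifng, the gene of interferon gamma, had 4, 7 and 6 counts in the Cre-labelled libraries and 3, 0 and 8 counts in the GFP-labelled ones and was not tested, and genes of type I interferon were not analysed here. Of 6 receptor genes 1 (16.7%) had all Cre-labelled libraries higher, a share near the 11.1% of all genes tested. It was Ifngr1, the ligand-binding chain of the interferon gamma receptor, at 5.93, 5.70 and 5.65 FPKM in the Cre-labelled libraries, against 4.62, 4.37 and 4.38 FPKM in the GFP-labelled ones (edgeR adjusted p = 0.139). Ifnar1, a chain of the type I receptor, averaged 7.74 ± 0.772 FPKM in the Cre-labelled and 6.95 ± 0.401 FPKM in the GFP-labelled libraries, and Il10rb averaged 2.24 ± 0.417 and 1.80 ± 0.235 FPKM in the Cre-labelled and GFP-labelled libraries (SD, n = 3 each).

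Among 10 signalling genes the median log2 difference was 0.090, with 1 higher (Ikbke) and none lower at an unadjusted p under 0.05, a share near the 8.11% of all genes tested that were higher. Ikbke, a kinase that activates IRF3 and IRF7, and Stat3 had log2 differences of 0.43 ± 0.18 and 0.14 ± 0.063 (SE). The 8 sensors and adaptors had a median of 0.054. Sting1, the adaptor for cytosolic DNA, was at 0.37 ± 0.22, Cgas, the DNA sensor, at 0.32 ± 0.29 and Tlr3 at -0.14 ± 0.15 (SE). All 8 overlapped between groups, as did most genes tested, of which 11.1% were separate as higher and 11.7% as lower. Of 7 genes that restrain the response, Adar, which edits double-stranded RNA so that it is not sensed, stood at 35.5, 35.4 and 35.0 FPKM in the Cre-labelled libraries, against 36.4, 41.8 and 45.1 FPKM in the GFP-labelled ones (edgeR adjusted p = 0.177, DESeq2 adjusted p = 0.0202). Socs3 and Ptpn6, both inhibitors of cytokine receptor signalling, had log2 differences of 0.63 ± 0.28 and 0.50 ± 0.25 (SE). Of 8 genes typical of interferon gamma, 4 were higher at an unadjusted p under 0.05, where 8.11% of all genes tested were, and the median was 0.65, above that of the 40 interferon-stimulated genes. They included the immunity-related GTPases Irgm1, Iigp1 and Igtp, with log2 differences of 0.65 ± 0.16, 0.95 ± 0.30 and 0.66 ± 0.22 (SE; edgeR adjusted p = 0.123, 0.181 and 0.191). The fourth, named here after its values were seen, was Cxcl9, a chemokine that attracts T cells, with 47, 126 and 85 counts in the Cre-labelled libraries, against 0, 26 and 22 counts in the GFP-labelled ones. Its groups were separate, with a log2 difference of 2.31 and a 95% interval of 0.096 to 4.52 (edgeR adjusted p = 0.273). DESeq2 called Irgm1 and Iigp1 higher and Adar lower, and no other gene of these lists. Of all genes to which it gave an adjusted p, it called 3.12% higher and 4.91% lower.

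Markers of cell types that could carry such transcripts were summed in the same libraries. The 6 microglial genes, of which 2 had a log2 difference above 0, spanned 268 to 290 CPM across the Cre-labelled libraries and 244 to 284 CPM across the GFP-labelled ones, and none had an unadjusted edgeR p under 0.05. Aif1 was high in GFP-labelled library 1 alone, at 7.39 FPKM, against at most 2.33 FPKM elsewhere. The 5 genes of neutrophils and monocytes gave 42.8, 109 and 145 CPM for the Cre-labelled libraries, against 54.8, 40.2 and 42 CPM for the GFP-labelled ones, and S100a8 and S100a9 were higher at an unadjusted edgeR p under 0.05. Cre-labelled library 1 lay within the GFP-labelled range and Cre-labelled libraries 2 and 3 above it. The T cell list of 6 genes spanned 4.85 to 6.67 CPM across the Cre-labelled and 3.68 to 4.55 CPM across the GFP-labelled libraries. Of these, the defining markers were near 0, with at most 14 counts of Cd3e and 31 of Cd3g in any library, and Cd8a had 34, 37 and 66 counts in the Cre-labelled libraries, against 19, 0 and 14 counts in the GFP-labelled ones. Cd3d had 5, 0 and 12 counts in the Cre-labelled libraries and 0 in each GFP-labelled one. Lck had the most counts of the list, with 152, 131 and 198 in the Cre-labelled libraries, against 120, 166 and 147 in the GFP-labelled ones. The groups of Lck and Cd4 overlapped. For 4 natural killer cell genes the sum was 0.768 CPM or less in every library. The 5 genes of B and plasma cells ranged from 12.9 to 44.6 CPM in the Cre-labelled and from 10.5 to 40.4 CPM in the GFP-labelled libraries. The 3 genes listed for plasmacytoid dendritic cells ranged from 12.2 to 14.4 CPM and from 10.8 to 11.9 CPM in the Cre-labelled and GFP-labelled libraries. That sum mainly followed Siglech, with 564, 549 and 513 counts in the Cre-labelled libraries, against 446, 440 and 486 counts in the GFP-labelled ones. The Siglech groups overlapped in normalised CPM (edgeR adjusted p = 0.675). The other genes of that list, Ccr9 and Ly6d, had at most 46 and 111 counts in any library, and their groups overlapped as well. Endothelial genes spanned 131 to 168 CPM in the Cre-labelled and 122 to 152 CPM in the GFP-labelled libraries, with 2 of 5 higher at an unadjusted edgeR p under 0.05. All 4 ependymal genes were higher by that measure, with sums of 137 to 191 CPM in the Cre-labelled and 101 to 112 CPM in the GFP-labelled libraries. Neuronal genes spanned 2050 to 2320 CPM in the Cre-labelled and 2300 to 2380 CPM in the GFP-labelled libraries. By that measure 1 of 4 was lower, and none of the 4 had a log2 difference above 0. No gene of the astrocyte or oligodendrocyte lists passed that measure. Of all genes tested, 8.11% were higher and 9.11% lower by it. The part of these cells and of the ribosomal RNA in the values of the interferon-stimulated genes was not tested.

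**Figure D5:**
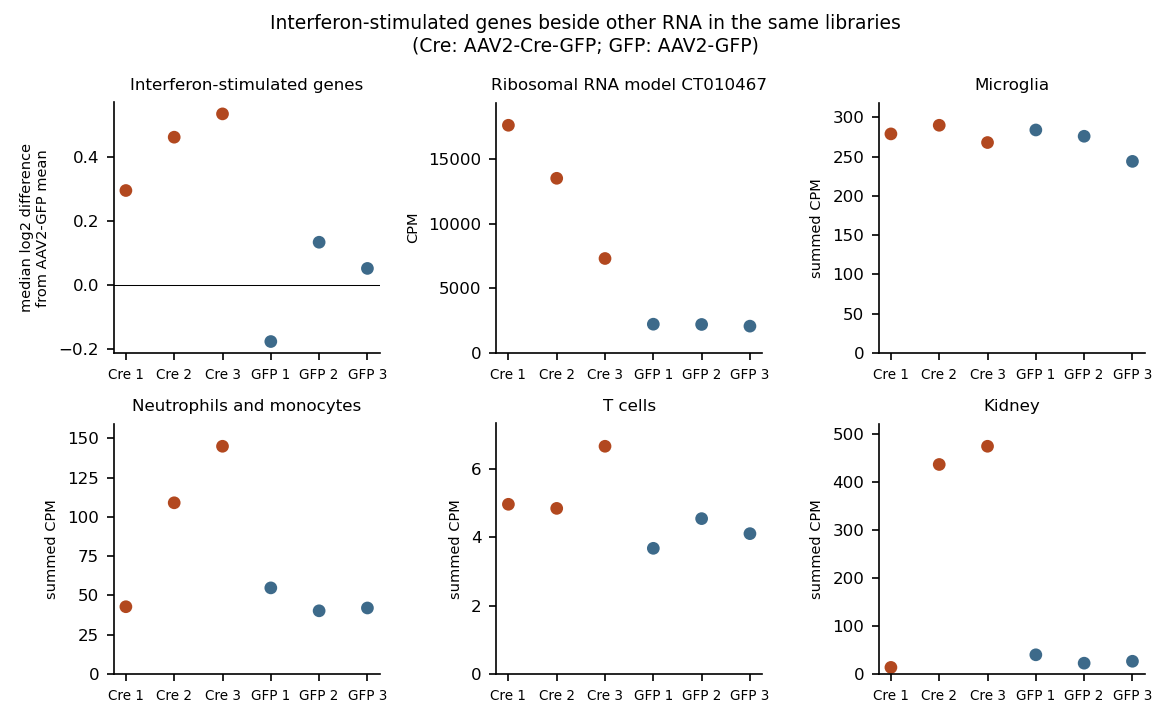
Each point is a library, Cre-labelled ones on the left; the panels give the median log2 difference of the 40 genes from the mean of the GFP-labelled libraries, the level of the ribosomal RNA model CT010467 and the summed CPM of 4 marker lists. The median is 0.30, 0.46 and 0.54 in Cre-labelled libraries 1 to 3 and between -0.18 and 0.13 in the GFP-labelled ones, and CT010467 is highest in Cre-labelled library 1.

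The libraries of a group did not agree on every gene. The median over the 40 genes, each relative to its GFP-labelled mean, was 0.30, 0.46 and 0.54 in Cre-labelled libraries 1 to 3 and -0.18, 0.13 and 0.052 in GFP-labelled libraries 1 to 3. All 3 Cre-labelled medians were above all GFP-labelled ones. GFP-labelled library 1, the one with testis transcripts, was the lowest of all 6 libraries for 22 of the 40 genes. Inside the Cre-labelled group, library 1 was the lowest for 20 genes and the highest for 11, with Ifit1, Ifit3, Ifit3b, Ifi27 and Mx2 among those highest there and Irf7, Samd9l, Oas3 and Sp100 among those lowest. Levels differed widely between members: 17 averaged under 1 FPKM in both groups and 5 averaged at least 5 FPKM in both.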

How the data were processed

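Poly(A) RNA of the PVH was sequenced as read pairs from stranded libraries, per the labels' protocols. The submitters' processing notes name cutadapt, HISAT2 and StringTie; the sources used here give no versions and do not say if strand or the molecular identifiers entered the counting. Their build is mm9, whereas the deposited positions equal those of GENCODE M21 on GRCm38 for 91.4% of the 35024 common identifiers and 36 of the 40 members; coordinates are therefore given as GRCm38. The deposited counts are whole numbers per gene with no normalization, and the FPKM values were deposited by the authors for the same libraries, with every sample column mapped by name. edgeR 4.0.16 in R 4.3.3 (quasi-likelihood test, TMM, filterByExpr with a minimum count of 10, two-sided) was fitted to 20865 genes with Benjamini-Hochberg adjustment; standard errors come from its F statistic. Alternatives were DESeq2 1.42.0, other scalings and filters, a replicate block, single libraries left out, and limma 3.58.1 on log2(FPKM + 0.5 or 0.1), computed from the deposited FPKM. The biological coefficient of variation was 27.1%; the chi-square per gene was at least 11.4 in every pair of libraries, so none was a repeat deposit. The tests were also run on counts simulated from the fitted dispersions, without the differences in other-organ transcripts and ribosomal RNA between libraries. No result here rests on that run. Members, lists and named genes were chosen with earlier results of these data known: values per library were given for the 14 members with the smallest edgeR p and for 10 fixed members, and the 3 with the smallest p were named from each further list; an item that this rule takes is not reported here. Other-organ lists, the summed pairs and the leave-out runs of DESeq2 were added after seeing the data.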

Additional observations from a re-analysis of the deposited data

How the results depend on the processing

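None of the 40 genes was called in edgeR or limma under 14 of the 16 other settings of the main test. DESeq2 was an exception (6 higher, with 3 pathway genes called). It called 3.12% of the genes to which it gave an adjusted p higher and 4.91% lower. The other exception was the fit of Cre-labelled library 1 against GFP-labelled libraries 2 and 3. The calls of that fit rest on the spread of the GFP-labelled libraries alone. Genes called over the whole table numbered 2 in the main test, 1322 with DESeq2, 1059 in that fit of 3 libraries, 9 with RLE size factors, 22 with the robust fit, 15 with limma at a pseudocount of 0.1, 1 with library totals, without a filter or with limma without a filter, and 1 to 296 with a library left out (296 without Cre-labelled library 1). The median of the 40 genes was 0.40 to 0.51 with a library left out and 0.183 in the fit of 3 libraries. The limma fits with a filter kept only members with a mean of at least 1 FPKM. Over these members the median was 0.284 and 0.32 (pseudocounts 0.5 and 0.1). Without that filter limma gave 0.21 over all 40 genes (pseudocount 0.5). The filtered medians thus cover fewer genes than the edgeR median, and by construction the pseudocount shrinks the differences of low genes. DESeq2 with a library left out called 3 to 9 members, where it called 1.31 to 3.39% of all genes higher, and 2 in the fit of 3 libraries, where it called 1.13%. With library totals in place of TMM the median of all genes was 0.039 and that of the 40 was 0.516. The sign held under every setting that tested the gene for 28 of the 40 genes. Eif2ak2 turned to 0.024 with library totals and to 0.014, 0.018 and 0.014 with limma, and Lgals3bp to 0.001 with library totals. In the fit of 3 libraries Stat2 turned to -0.317, Oas2 to -0.172, Oas3 to -1.633, Oasl1 to -1.092, Ifitm3 to -0.285, Sp100 to -0.419 and Ptpn6 to -0.161. With a library left out the ranges that cross 0 were -0.12 to 0.161 for Stat2, -0.564 to 0.183 for Dhx58, -0.077 to 0.136 for Oasl2, -0.088 to 0.884 for Mx2, -0.107 to 0.038 for Eif2ak2, -0.267 to 0.24 for Ifi35, -0.143 to 0.089 for Lgals3bp and -0.029 to 0.181 for Ruvbl2; the cause of these changes was not tested. Replicate numbers did not pair the libraries (correlations of deviations -0.044, 0.012 and -0.022; 1 of 6 libraries correlated best with its own number), and with the replicate block no member was called, 3 genes were called in all, the median was 0.396 and Ruvbl2 stood at 0.087. Depth limits Mx1, Oas1a, Oasl1 and Zbp1, which had at most 56 counts in any library.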
